A study of Mus musculus with 8 samples.

Results

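The genes described here encode 8 liver-enriched transcription factors, Hnf4a, Foxa1, Foxa2, Foxa3, Cebpa, Cebpb, Nr5a2 and Onecut1. They were chosen by name from the 21915 genes of an mRNA count table, and their changes in both comparisons described here, Kap1 knockdown against control and samples numbered 2 against samples numbered 1, were part of that choice. All 8 had a row in the table, and all 8 were among the 14142 genes that passed edgeR's filter on low counts. Because the choice used both comparisons, the members' values are given as a description with no test.

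The study asked how KAP1, a transcriptional corepressor encoded by Trim28, affects transcription in Hepa 1-6 cells, a mouse hepatoma line. Polyadenylated RNA was sequenced from 2 control and 2 Kap1 knockdown (KD) samples. Knockdown cells received a pLKO lentiviral vector with an shRNA against Kap1. Control cells received the empty vector according to the methods, whereas the sample labels describe a plasmid with a control shRNA. Both groups were collected 5 days after transduction and had been selected with puromycin. No other allele or agent is given for either group. A single Kap1 shRNA in a single tumour cell line limits the comparison as a model, and nothing states that the samples of a group were separate cultures. The labels give the number 2 to 1 sample per group; the remaining sample, unnumbered in the labels, is called number 1 here. What the number marks is not stated.

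Liver-enriched transcription factors are defined by their combined presence in hepatocytes rather than by strict restriction to that cell type. They belong to several DNA-binding families, bind together at the regulatory regions of genes for plasma proteins, lipid transport and metabolism, and regulate one another's genes. HNF4A is a nuclear receptor needed for hepatocyte differentiation, the FOXA proteins are forkhead pioneer factors that bind nucleosomal DNA, and C/EBP proteins are leucine-zipper factors of metabolic and acute-phase genes.

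Depth ranged from 41566888 to 53605115 counts per sample. Trim28, the targeted gene, had 25400 and 28506 counts in controls 1 and 2, and 4512 and 3692 in KD samples 1 and 2. Its KD level was 0.232 of control in the number 1 pair and 0.137 in the number 2 pair, so the knockdown was visible in both. The samples stood apart by number more than by group. The first principal component of the tested genes separated the numbers with 75.8% of the variance, and the second held 17.7%. Of the hepatocyte markers checked, Alb (albumin) had 20626 to 88000 counts and Afp (alpha-fetoprotein, the fetal counterpart of albumin) had 20838 to 38829. The plasma protein genes Ttr, Hp and Ahsg, also markers of hepatocytes, had at most 11 counts in any sample, with Ttr at 0 in KD sample 1. The labelled hepatoma identity was thus matched by albumin and alpha-fetoprotein but not by every defining hepatocyte gene.

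Promoter sequence is shown for Hnf4a and Foxa1, the members with the greatest differences between numbers, which lay in opposite directions, and for Foxa3 and Cebpa, which hold a TATA box at the usual distance before the start. Each window holds 300 bases, 250 before and 50 after a RefSeq start on the mouse build GRCm38.p6, written on the gene's strand from 5′ to 3′. Capitals mark every match, on either strand, to 6 motifs: TATAAA (the TATA box), TGTTTAC (a forkhead core), ATCAAT (an ONECUT core), CAAGGTCA (an NR5A2 site), CAAAGTCCA (an HNF4 site) and TTGCGCAA (a C/EBP palindrome). No motif is contained in another. A match is a match of letters and not a bound site. The count table sums all transcripts of a gene, so reads from alternative starts are not separated.
Hnf4a, upstream start, chr2:163506607-163506906, plus strand: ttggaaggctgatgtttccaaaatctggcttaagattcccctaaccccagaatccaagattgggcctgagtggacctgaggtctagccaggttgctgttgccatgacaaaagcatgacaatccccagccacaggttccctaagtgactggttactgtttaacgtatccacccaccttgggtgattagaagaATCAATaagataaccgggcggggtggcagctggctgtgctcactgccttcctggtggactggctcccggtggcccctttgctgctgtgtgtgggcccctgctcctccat
Foxa1, chr12:57546062-57546361, minus strand: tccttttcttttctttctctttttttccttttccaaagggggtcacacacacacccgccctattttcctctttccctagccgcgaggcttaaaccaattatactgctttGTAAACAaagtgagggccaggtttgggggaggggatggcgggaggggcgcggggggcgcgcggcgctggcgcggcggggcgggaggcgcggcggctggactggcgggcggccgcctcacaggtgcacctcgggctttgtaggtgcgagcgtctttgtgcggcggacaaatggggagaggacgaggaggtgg
Foxa3, chr7:19023490-19023789, minus strand: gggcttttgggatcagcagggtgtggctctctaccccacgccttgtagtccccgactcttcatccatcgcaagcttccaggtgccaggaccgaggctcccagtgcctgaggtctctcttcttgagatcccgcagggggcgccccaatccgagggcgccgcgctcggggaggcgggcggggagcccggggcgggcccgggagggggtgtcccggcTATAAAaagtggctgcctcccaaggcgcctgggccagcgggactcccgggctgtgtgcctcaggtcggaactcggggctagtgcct
Cebpa, chr7:35119043-35119342, plus strand: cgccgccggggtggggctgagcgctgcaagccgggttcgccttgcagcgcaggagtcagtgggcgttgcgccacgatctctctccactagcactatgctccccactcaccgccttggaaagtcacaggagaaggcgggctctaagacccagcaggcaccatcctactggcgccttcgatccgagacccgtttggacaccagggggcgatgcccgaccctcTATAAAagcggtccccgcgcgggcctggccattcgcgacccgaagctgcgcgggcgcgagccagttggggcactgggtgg

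The upstream Hnf4a window, 1 of 2 that RefSeq lists for this gene, held 1 ONECUT core, whose first base lay at -59 from the start. The downstream Hnf4a window, at chr2:163546905-163547204, is not shown. In the Foxa1 window the capitals mark a forkhead core on the opposite strand, at -141. The TATA box lay at -36 in Foxa3 and at -30 in Cebpa. Across the 12 windows that RefSeq lists for the 8 members, TATAAA occurred in 5, against 13.6% of all 32851 windows. Apart from Foxa3 and Cebpa, these letters lay away from the usual TATA position. They stood after the start in Cebpb, at 22, and on the opposite strand in Nr5a2, at -181, and in a Foxa2 window, at -208. ATCAAT occurred in 2 of the 12 windows and in 7.54% of all windows, and TGTTTAC in 1 and in 3.65%. The NR5A2, HNF4 and C/EBP letters occurred in 0 of the 12 windows, and in 1.56%, 0.475% and 0.183% of all windows.

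The windows also differed in base composition. The Cebpb window held 50 CpG dinucleotides and 80.7% G and C, and the Onecut1 window held 38 and 73%. The Cebpa and Foxa1 windows held 29 and 26 CpG dinucleotides. Both Hnf4a windows held 4, and the 2 Nr5a2 windows held 2 and 7, against a median of 7 over all windows. Foxa1 and Nr5a2, which both had lower levels in the samples numbered 2, were therefore unlike each other in CpG content.

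On the mm9 build used by the authors, Hnf4a (ENSMUSG00000017950) lies at chr2:163332544-163398646 on the plus strand, Foxa2 (ENSMUSG00000037025) at chr2:147868613-147872705 on the minus strand, and Cebpb (ENSMUSG00000056501) at chr2:167514415-167515918 on the plus strand. Foxa1 (ENSMUSG00000035451) lies at chr12:58641618-58647108 on the minus strand. Foxa3 (ENSMUSG00000040891) lies at chr7:19598631-19608887 on the minus strand and Cebpa (ENSMUSG00000034957) at chr7:35904312-35906945 on the plus strand. Nr5a2 (ENSMUSG00000026398) lies at chr1:138740161-138857004 on the minus strand, and Onecut1 (ENSMUSG00000043013) at chr9:74709728-74737591 on the plus strand. All are protein-coding, and values are sums over their exons. Exons of Cebpb share 312 bp with Tmem189 on the opposite strand, and exons of Onecut1 share 479 bp with the non-coding Gm16551 on the same strand, so reads in those stretches are of uncertain origin.

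The members fell into an upper, a middle and a lower range of level. Levels between genes were compared as FPKM, counts scaled to exon length and to depth, computed here from the counts. The mean over the 4 samples was 30.2 ± 5.68 FPKM (SD, n = 4) for Foxa2, 27.2 ± 10.2 for Hnf4a and 22.0 ± 4.92 for Foxa3. The ranges of these neighbours overlapped: Foxa2 spanned 24.3 to 35.1 FPKM, Hnf4a 17.0 to 40.4 and Foxa3 17.8 to 27.6. Cebpa followed at 11.6 ± 1.94 FPKM and Cebpb at 6.35 ± 1.42, and neither range overlapped that of a neighbour in the order. Nr5a2 and Onecut1 had both a mean of 1.64 FPKM (SD 0.407 and 0.364), and Foxa1 had 1.15 ± 0.553, with overlapping ranges. The median tested gene had 5.58 FPKM, with quartiles of 1.17 and 18.9, so that Foxa2, Hnf4a and Foxa3 lay above the upper quartile and Foxa1 below the lower.

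**Figure D1:**
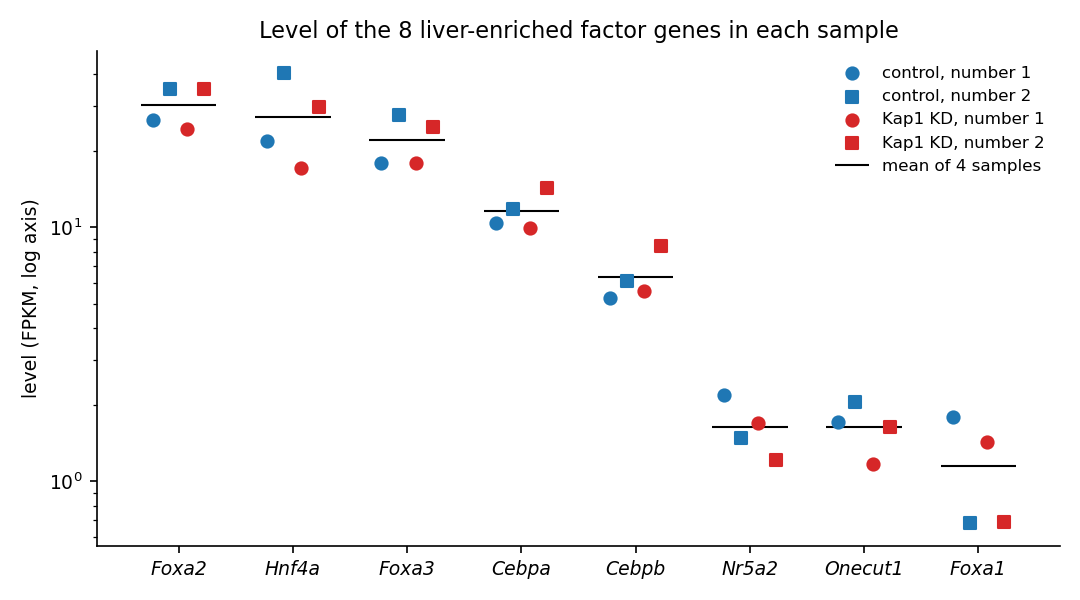
Level of each member in FPKM on a log axis, ordered by mean, with circles for samples numbered 1, squares for samples numbered 2, blue for control, red for Kap1 KD, and a line at the mean of 4 samples. Foxa2, Hnf4a and Foxa3 lie above 17 FPKM in all 4 samples, and for Foxa1 both squares lie below both circles.

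Within a member the samples were compared as CPM, depth-scaled counts after TMM normalisation. Log2 differences were taken between values of CPM plus 0.1, which understates the change of low genes. Genes were called at a 1.5-fold change with a Benjamini-Hochberg adjusted p under 0.05 from edgeR's quasi-likelihood test. Between Kap1 KD and control, 0% of tested genes were called, and 0 of the 8 members. Trim28 itself, low in both KD samples, was not called. This fit had no term for the number, so differences between numbers counted as spread within each group. The absence of calls therefore does not show that no gene changed. The study reported down- and upregulated genes from DESeq2 at the same thresholds. At an unadjusted p under 0.05 edgeR gave 185 genes and DESeq2 178, and DESeq2 called 3 after adjustment. Between the samples numbered 2 and 1, without regard to group, edgeR called 6.55% of tested genes higher and 14.2% lower. The members called were Hnf4a, higher, and Foxa1, lower, and nothing is read from those calls because the comparison was part of the choice.

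Hnf4a, the nuclear receptor of hepatocyte differentiation, had 110.1 CPM in control 1, 203 in control 2, 85.4 in KD 1 and 149 in KD 2. Both samples numbered 2 lay above both numbered 1, while the KD and control samples overlapped. The number 2 sample was 1.84-fold the number 1 sample in control cells (95% interval from counts 1.78 to 1.90) and 1.74-fold in KD cells (1.67 to 1.81). Within a number KD was lower than control, at 0.776 (0.744 to 0.808) in the number 1 pair and 0.733 (0.711 to 0.756) in the number 2 pair. These intervals, and those that follow, cover counting error only and not variation between cultures. The log2 difference between KD and control averaged -0.41, and that between numbers 0.84. Leaving out each sample in turn moved the first from -0.85 to 0.03 and the second from 0.62 to 1.06. A comparison without 1 sample no longer matches samples by number, so its KD difference also holds part of the difference between numbers. Within both same-numbered pairs Hnf4a was lower in KD.

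Nr5a2 (LRH-1), a nuclear receptor of bile acid and cholesterol metabolism, had 465 and 282 counts in controls 1 and 2, and 276 and 218 in KD 1 and KD 2. This corresponded to 8.35 and 5.68 CPM in control and to 6.48 and 4.66 CPM in KD. Nr5a2 was higher in the samples numbered 1, in both groups, and so ran opposite to Hnf4a between numbers. The ratio of number 2 to number 1 was 0.681 (0.585 to 0.791) in control and 0.719 (0.599 to 0.862) in KD. KD was at 0.776 (0.666 to 0.903) and 0.820 (0.684 to 0.982) of control in the number 1 and number 2 pairs. The KD and control groups overlapped. The ratio of Hnf4a to Nr5a2 FPKM was 10.1 in both samples numbered 1, and 27.2 and 24.4 in control 2 and KD 2.

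The Foxa family was made up almost entirely of Foxa2 and Foxa3. Foxa2, which acts in endoderm formation and in the fasting response of the liver, had 62.5 CPM in control 1, 83.3 in control 2, 57.6 in KD 1 and 82.9 in KD 2. The samples numbered 2 were again the high ones, 1.33-fold (1.27 to 1.39) in control and 1.44-fold (1.37 to 1.51) in KD. KD was at 0.921 (0.875 to 0.970) of control in the number 1 pair and at 0.995 (0.952 to 1.04) in the number 2 pair. Foxa3, the family member expressed latest in liver development, had 36.4, 56.3, 36.6 and 50.4 CPM in the same order. For Foxa3 the KD ratio lay on both sides of 1, at 1.01 (0.941 to 1.08) and 0.897 (0.849 to 0.948), while number 2 over number 1 was 1.55 (1.46 to 1.64) in control and 1.38 (1.29 to 1.47) in KD.

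Foxa1 showed the reverse order between numbers. This forkhead factor, which can bind the same sites as Foxa2 and is also known from breast and prostate, had 318 counts in control 1, 108 in control 2, 194 in KD 1 and 103 in KD 2. The levels were 5.71, 2.18, 4.55 and 2.20 CPM, so both samples numbered 2 lay below both numbered 1 and close to each other. The ratio of number 2 to number 1 was 0.381 (0.304 to 0.476) in control and 0.483 (0.377 to 0.617) in KD. KD was at 0.798 (0.664 to 0.957) of control in the number 1 pair and at 1.01 (0.765 to 1.34) in the number 2 pair. Leaving out 1 sample moved the log2 difference between KD and control from -0.83 to 0.52, whereas that between numbers ran from -1.34 to -1.02.

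The family's composition followed these shifts. The summed FPKM of the 3 Foxa genes was 46.0 in control 1, 63.4 in control 2, 43.7 in KD 1 and 60.4 in KD 2. Foxa1 made up 3.89% and 3.27% of it in control 1 and KD 1, and 1.08% and 1.14% in control 2 and KD 2. Foxa2 had 55.4% to 57.9% in all 4 samples. The ratio of Foxa2 to Foxa1 was therefore 14.7 and 17.0 in the samples numbered 1 and 51.4 and 50.6 in those numbered 2.

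**Figure D2:**
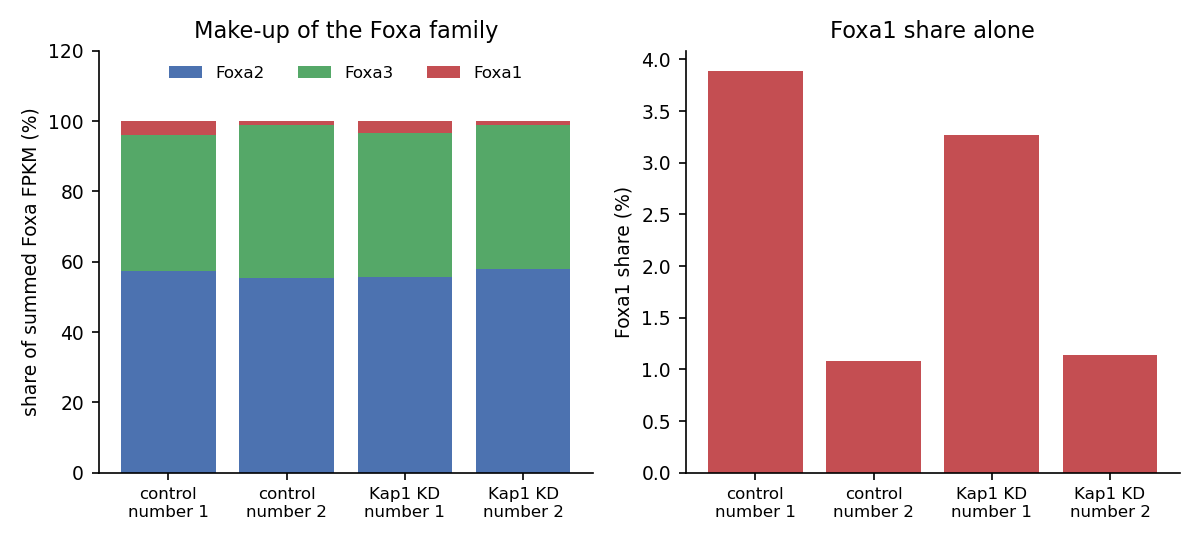
Share of each Foxa gene in the summed FPKM of the family, in percent, with 1 bar per sample (left), and the Foxa1 share on its own axis (right). Foxa2 and Foxa3 fill over 96% of each bar, and the Foxa1 share is 3.89% and 3.27% in the samples numbered 1 and 1.08% and 1.14% in those numbered 2.

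Both C/EBP genes were highest in KD sample 2. Cebpa, which restrains proliferation and drives metabolic genes in hepatocytes, had 27.4 and 31.0 CPM in controls 1 and 2, and 26.2 and 37.5 CPM in KD 1 and KD 2. Cebpb, the family member induced in the acute-phase response and in liver regeneration, had 7.92 and 9.21 CPM in control, and 8.40 and 12.7 CPM in KD. In the number 1 pair KD was at 0.954 (0.882 to 1.03) of control for Cebpa and at 1.06 (0.921 to 1.22) for Cebpb, both with an interval that included 1. In the number 2 pair it was at 1.21 (1.13 to 1.30) and 1.37 (1.21 to 1.56). The number 2 sample was 1.13-fold (1.05 to 1.21) and 1.16-fold (1.02 to 1.33) the number 1 sample in control, and 1.44-fold (1.33 to 1.55) and 1.51-fold (1.32 to 1.72) in KD. Without KD sample 2 the log2 difference between KD and control was -0.16 for Cebpa and -0.02 for Cebpb, against 0.10 and 0.27 with all samples. The ratio of Cebpa to Cebpb FPKM was 1.98 and 1.92 in control and 1.78 and 1.69 in KD.

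Onecut1 (HNF6), a cut-homeodomain factor of hepatocyte and bile duct development, had 202 and 215 counts in controls 1 and 2, and 105 and 161 in KD 1 and KD 2. At 3.63 and 4.33 CPM in control and 2.46 and 3.44 CPM in KD, both KD samples lay below both controls. It was the member whose KD and control samples did not overlap, a pattern found with lower KD values in 10.6% of tested genes and with higher KD values in 9.69%. KD was at 0.680 (0.532 to 0.865) of control in the number 1 pair and 0.794 (0.643 to 0.979) in the number 2 pair. Number 2 over number 1 was 1.19 (0.981 to 1.46) in control and 1.40 (1.09 to 1.80) in KD. The log2 difference between KD and control averaged -0.43 and ran from -0.66 to -0.20 when each sample was left out.

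Set side by side, the KD difference was lower in both pairs for Hnf4a, Nr5a2, Onecut1 and Foxa2, higher in both for Cebpb, and of mixed sign for Foxa1, Foxa3 and Cebpa. Among all tested genes 38.1% were lower and 32.8% higher in both pairs. The median of the members' mean log2 differences was -0.11, against -0.02 over all tested genes. Between numbers, 6 members were higher and 2, Foxa1 and Nr5a2, lower in the samples numbered 2 of both groups, against 42.8% and 43.4% of tested genes. The median was 0.38, against -0.003 over all tested genes. The groups formed by number did not overlap for 5 members with higher values in number 2 (35.5% of tested genes) and for 2 with lower values (37.2%). Both comparisons use the same 4 samples.

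**Figure D3:**
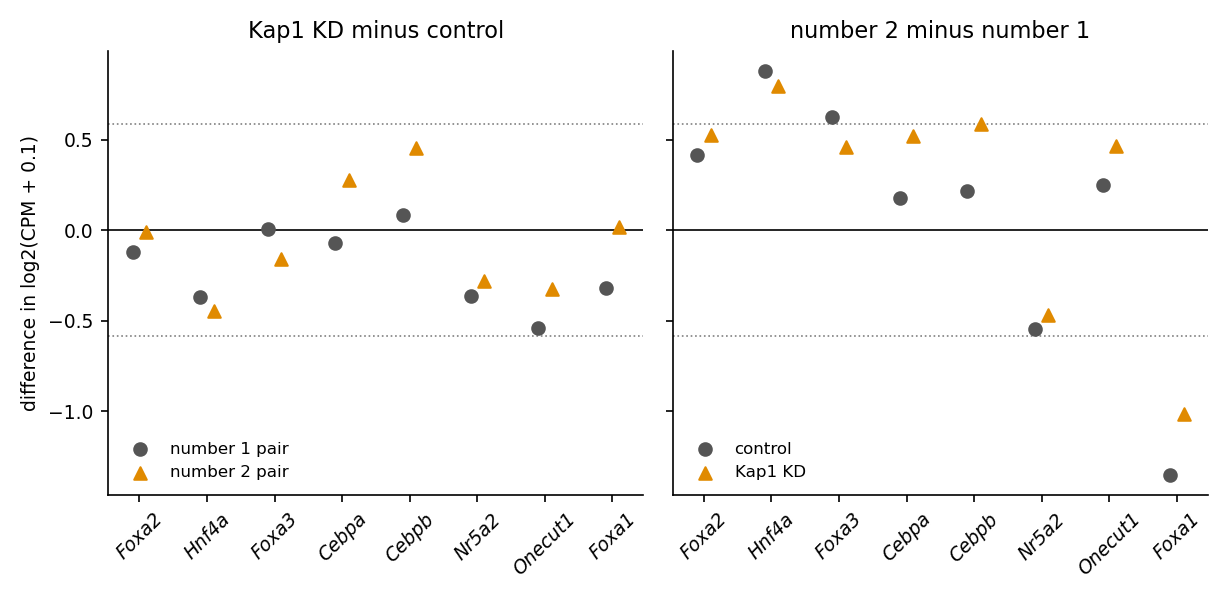
Difference in log2(CPM + 0.1) for each member between Kap1 KD and control in the number 1 and number 2 pairs (left), and between number 2 and number 1 in control and KD cells (right), with dotted lines at a 1.5-fold change. All KD differences lie within the dotted lines, whereas Hnf4a lies above and Foxa1 below them in both groups between numbers.

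The gene whose pattern was nearest to each member was found as the smallest Euclidean distance between centred log2 CPM values over the 4 samples. With 4 samples and 14142 genes, close matches are abundant, and the distances are a description only. For Cebpa it was Rnpepl1, with 60.7, 68.0, 57.6 and 82.7 CPM (distance 0.009), and for Foxa1 it was Zfp955b, with 8.01, 3.12, 6.34 and 3.06 CPM (0.034). Neil1 was nearest to Foxa3 (0.016), Zfp691 to Foxa2 (0.025), Nlgn2 to Onecut1 (0.028), Tceal8 to Nr5a2 (0.031), 1500010J02Rik to Cebpb (0.033) and Tigd3 to Hnf4a (0.059). Among the members themselves, Foxa2 and Foxa3 were nearest to each other (0.158), as were Cebpa and Cebpb (0.174), and the nearest member to Foxa1 was Nr5a2, at 0.709.

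Other transcription factors of the liver gave no call in Kap1 KD: 0 of the 23 tested, of 29 in the table, passed. Because 0% of all tested genes were called there, this says nothing about these factors in particular. Between numbers, 5 of the 23 rose, among them Nr1h3, Ppara and Esrra, and 3 fell (Cebpg, Nfib and Tbx3), against 6.55% and 14.2% of all tested genes. Esrra, a nuclear receptor of mitochondrial genes, had 48.2, 64.0, 51.9 and 86.1 CPM in control 1, control 2, KD 1 and KD 2. By number, edgeR gave it a log2 difference of 0.59 with a standard error of 0.15 (adjusted p = 0.0283), and it was higher in number 2 in both groups. Hhex, a homeobox factor of liver bud formation, had 62.7, 77.0, 56.8 and 64.7 CPM and was not called. Zbtb20, a repressor of Afp after birth, had 96.6, 68.8, 55.3 and 37.5 CPM and was at 0.573 and 0.544 of control in the KD pairs, without a call. Cebpd, the third C/EBP gene of the acute phase, had 3.25, 4.07, 4.55 and 13.2 CPM, so that, as for Cebpb, the high sample was KD 2.

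Textbook targets of the members were also examined, and 0 were called in Kap1 KD, as were 0% of all tested genes. Of the HNF4A targets, 7 of 13 in the table were tested, and 5 were lower in both KD pairs and 1 higher, against 38.1% and 32.8% of all tested genes. Apob, the structural apolipoprotein of low-density lipoprotein, had 30.1 and 30.3 CPM in controls 1 and 2 and 14.6 and 11.5 CPM in KD 1 and KD 2, so the groups did not overlap. Apoa2, an apolipoprotein of high-density lipoprotein, had 1.51, 1.94, 1.69 and 2.18 CPM. Beside the higher Hnf4a of the samples numbered 2, number 2 over number 1 was 1.01 for Apob in control and 0.788 in KD.

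The 4 tested FOXA targets, of 8 in the table, and the 2 tested C/EBP targets, of 7, were all lower in both KD pairs, against 38.1% of all tested genes. Alb, which is on both lists and so counts in each, had 1580.0 and 1037 CPM in controls 1 and 2 and 975 and 441 CPM in KD 1 and KD 2. Afp had 697 and 750.4 CPM in control and 604 and 445 CPM in KD. Tat (tyrosine aminotransferase) had 29 and 35 counts in the controls but 13 and 17 in the KD samples, and Fgb (fibrinogen beta chain) had 21.9, 32.3, 18.7 and 20.8 CPM. Scarb1, the receptor for high-density lipoprotein and the NR5A2 target that could be tested, had 100.2, 137, 129 and 204 CPM, and was thus higher in number 2, where Nr5a2 was lower. Several classic targets of adult liver had almost no counts: Cyp7a1, the rate-limiting enzyme of bile acid synthesis, had 2 counts in control 1 and 0 in the other 3 samples, and Cps1, a urea cycle enzyme, had 0 to 2.

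**Figure D4:**
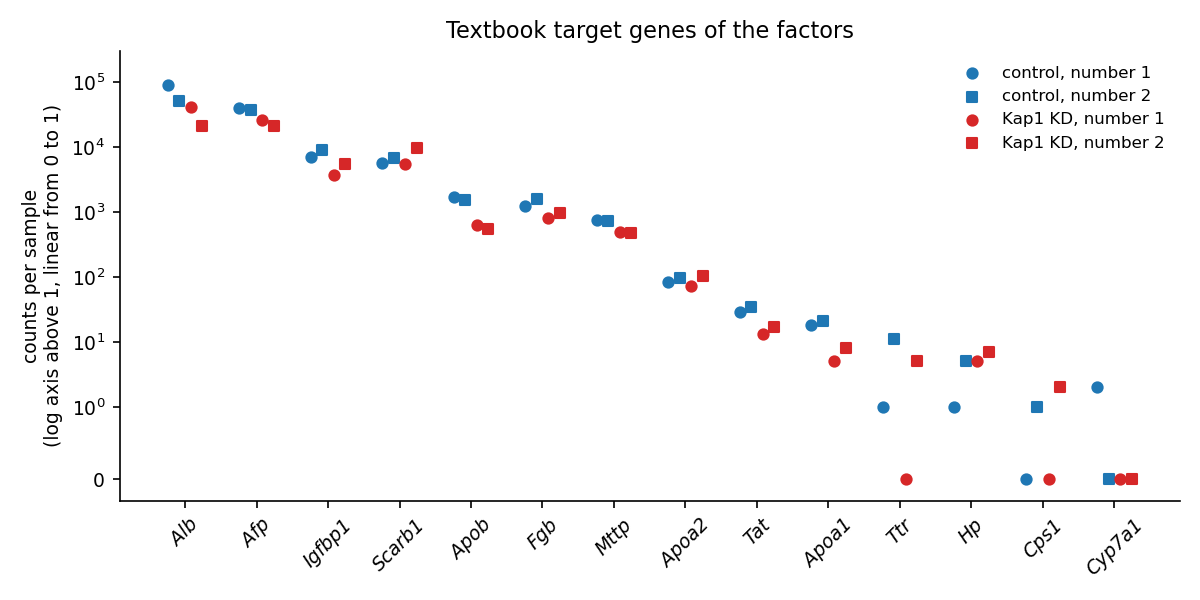
Counts per sample of 14 target genes of the factors, not corrected for depth, on an axis that is logarithmic above 1 and linear from 0 to 1; symbols are as in the plot of levels. Alb and Afp have 20626 counts or more in every sample, and Ttr, Hp, Cps1 and Cyp7a1 have at most 11.

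Markers of cell types moved in part with these comparisons. Of the 7 tested hepatocyte markers, 6 were lower in both KD pairs (38.1% of all tested genes were), and their list summed to 1865 and 2340 CPM in control and 929 and 1620 CPM in KD, most of it Alb and Afp. All of these tested markers except Trf (transferrin) are also on the target lists above, so the counts of those lists and of the markers are not separate. The cholangiocyte list, with 5 of 6 tested genes lower in both KD pairs against the same 38.1%, summed to 260 to 280 CPM in control and 200.4 to 221 in KD. Between numbers, the macrophage genes Cd68 and Csf1r rose in number 2, as Hnf4a was higher there: the leukocyte list, of which 2 of 4 genes in the table were tested, summed to 4.22 and 5.04 CPM in number 1 and 9.66 and 9.78 in number 2. Ptprc, the pan-leukocyte gene, had 4 to 8 counts in every sample, and no leukocyte gene was at 0. The fibroblast and stellate list, of which Col3a1 fell among 5 tested genes, summed to 1696 and 1706 CPM in number 1 and 1232 and 1306 in number 2, nearly all of it Dcn. The endothelial list had 1 tested gene and at most 0.376 CPM in sum, with Cdh5, Kdr and Tek each at 0 in at least 1 sample. The part of these markers in the members' values was not tested, and fewer cells of a type cannot be told apart from less RNA per cell in such bulk samples.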

How the data were processed

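Polyadenylated RNA from 4 Hepa 1-6 samples of a series of 8 was analysed; the small RNA tables were not used here. The authors aligned 100 bp single-end reads to mm9 with TopHat2 2.0.11 and deposited raw counts per Ensembl gene from HTSeq 0.6.1 (versions from the submitters' processing notes). The strand setting of the counting is not given in the sources used here. Alignment was limited to 1 location per read, which affects genes with near-identical copies.

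Symbols, mm9 coordinates and exon lengths came from GENCODE for the same build, which named 21806 of 21915 identifiers. Counts were scaled by TMM and tested with edgeR 4.0.16 (filterByExpr, quasi-likelihood test, Benjamini-Hochberg adjustment) in R 4.3.3, by group or by number, without a replicate block. FPKM used the union of exons and the TMM-scaled depth. Ratio intervals are exact binomial intervals at 95%. Promoter windows and their coordinates came from RefSeq on GRCm38.p6 and were not converted between builds.

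The members and gene lists were chosen with earlier results of these data known. Apart from members and Trim28, genes were named by rule: per list of factors or targets, the 2 of highest FPKM and the 2 of largest mean difference between KD and control among tested genes, and the gene nearest to each member; some genes that this rule selects are not reported here. Genes called between numbers, genes with almost no counts and genes of the cell type lists were named after their values were seen. The p-values measure only the spread between these samples, which may be technical. Alternatives covered DESeq2 1.42.0, scaling, the filter, thresholds, a pseudocount of 1 CPM, exon length, the block and leaving out each sample. On counts simulated for 14142 genes with 200 changed, the fit of KD against control recovered 76 of 100 genes changed 4-fold and 4 of 100 changed 2-fold, with 11 false calls, and the fit by number recovered 180 of 200, with 18 false calls. Changed genes were taken from those above a mean of 1 CPM. For the KD fit each sample was drawn independently, with the spread estimated from the data. A shift shared by same-numbered samples was therefore not simulated, unlike in the data.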

Additional observations from a re-analysis of the deposited data

How the results depend on the processing

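Of the genes tested in Kap1 KD against control, 0 were called with median-of-ratios scaling, without the filter and without the minimum fold, as in the reported fit, while DESeq2 called 3. With the replicate block 631 were called, 292 higher and 339 lower, of which 0 are members, and Hnf4a and Onecut1 had an adjusted p under 0.05 at less than 1.5-fold. Same-numbered samples deviated from their group means together, with a correlation of 0.81 across genes, but with 2 pairs and no label for the number they are taken to share only a number. Leaving out each sample gave 3 to 65 calls, where the lone sample of a group is assumed to vary like the other group. Between numbers 2936 genes were called, and 5044 without the minimum fold. Leaving out each sample gave 1332 to 4110, the lowest without control 1. The causes were not tested. Across scalings and pseudocounts the sign of each member's 2 log2 differences was kept. Leaving out 1 sample turned the KD difference of Hnf4a, Foxa1, Foxa2, Foxa3, Cebpa or Cebpb at least once, but no difference between numbers. Without 1 sample the numbers were no longer balanced between KD and control. Such KD differences therefore also held part of the difference between numbers. Scaling by total counts shifted the median of all genes by -0.12 between numbers in KD cells and by -0.04 to -0.08 in the other pairs. With 103 to 318 counts for Foxa1 and 105 to 215 for Onecut1, depth limits the ratios of these genes. For number 2 over number 1 in KD cells, their intervals from counts were 0.377 to 0.617 and 1.09 to 1.80. For KD over control in the number 2 pair, the interval of Foxa1 was 0.765 to 1.34.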
